A study of Mus musculus with 6 samples.

Results

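Tubulins and the proteins that bind microtubules were followed in neocortical cells of the mouse embryo after forced expression of Insm1, a zinc-finger transcription factor of neural progenitors. The genes were taken by symbol from the count table: alpha-, beta-, gamma-, delta- and epsilon-tubulins, the classical microtubule-associated proteins (MAPs), the MAP7, doublecortin and stathmin families, the end-binding, CLIP, CLASP and CAMSAP proteins, and the tubulin polymerization-promoting proteins. They numbered 50 of 22001 genes, and 45 of the 50 had enough counts to be tested, among 13560 tested genes. Plasmids were introduced in utero by electroporation at E13.5, and mCherry-positive cells were sorted at E14.5, 24 h later. The control group (3 RNA-seq libraries) received a plasmid for mCherry alone, and the Insm1 group (3 libraries) a plasmid for Insm1 together with mCherry, so both groups carry mCherry and went through the same sort. The labels give neither the promoter of the plasmids, nor the strain, nor how many embryos went into a library. The p-values weigh the group difference against the variation between these libraries, and part of that variation may be technical. Whether they hold beyond these libraries is not known.

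Microtubules are hollow filaments built from dimers of alpha- and beta-tubulin, and mammals carry several genes for each, whose products differ mainly in their acidic tails. Gamma-tubulin seeds new filaments, structural MAPs bind along the lattice, and end-binding proteins and some CLIPs gather at the growing plus end. CAMSAPs hold the minus end, and stathmins sequester free dimers and promote shrinkage. In the developing cortex newborn neurons switch on the neuronal beta-tubulin Tubb3 and the lattice protein doublecortin as they leave the ventricular zone and migrate, and mutations in several of these genes disturb that migration in humans.

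Library totals lay between 30017645 and 31645135 counts, and Insm1 itself, which checks the labels, was between 222.1 and 370.6 CPM (counts scaled to one common library total) in the controls and between 1436 and 2173 CPM in the Insm1 libraries. Cortical markers were present throughout: Neurod6, a factor of projection neurons, was between 1370 and 1850 CPM and Eomes, of basal progenitors, between 364.7 and 443.9 CPM. Summed over 10 fixed genes of blood and microglia, a sum made up mostly of globins, control 2 stood at 3187 CPM against 406.2 and 192.3 CPM in controls 1 and 3 and 1724 to 3675 CPM in the Insm1 libraries. Over 6 genes of Cajal-Retzius cells, the early reelin-secreting neurons of the cortical surface, control 2 stood at 32.03 CPM against 132.8 and 126.6 CPM in the other controls and 33.03 to 48.13 CPM with Insm1. On both lists control 2 lay with the Insm1 libraries. Results below that turn on it are given with and without it.

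Many tubulin genes are near copies of each other, which bears on how reads of 75 bases can be assigned to them. The first 75 coding bases of 4 beta-tubulin genes, read 5′ to 3′ from the GENCODE M21 transcripts (GRCm38), show how far these genes differ at the level of 1 read. Capitals mark bases that differ from Tubb3 at the same place.
Tubb3: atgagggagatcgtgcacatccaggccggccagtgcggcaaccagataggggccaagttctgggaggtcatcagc
Tubb5: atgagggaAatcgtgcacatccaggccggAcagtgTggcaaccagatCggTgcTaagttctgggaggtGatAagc
Tubb2a: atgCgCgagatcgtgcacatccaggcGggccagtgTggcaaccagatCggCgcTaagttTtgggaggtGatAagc
Tubb2b: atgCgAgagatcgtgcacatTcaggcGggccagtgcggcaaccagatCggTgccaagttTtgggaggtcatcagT

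Tubb5 and Tubb2b each differed from Tubb3 at 8 of the 75 bases and Tubb2a at 10. Over whole transcripts, 70.45% of the 75-base runs of Tuba1a also occur in a transcript of another gene, 78.31% of those of Tuba1b and 56.66% of those of Tuba1c. For Tubb2a and Tubb2b the share is 43.23% and 32.16%, mostly with each other, and for Tubb4b 40.88%, mostly with pseudogenes. Stmn1 shares 21.11% with a processed pseudogene, and Tuba4a shares 47.18% with Stk16, which lies on the opposite strand. In 28 of the 50 genes, among them Tubb3, Tubb5, Dcx, Mapt, Stmn2, Clip1 and Clip3, no run is shared. How the authors treated reads with several places is not given in the sources used here, so counts of Tuba1a, Tuba1b and Tuba1c are uncertain as single genes.

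Levels between genes were compared per length. The deposited TPM could not serve for this: in 95.6% of 7666 genes with more than 500 counts in every library the length implied by the authors' TPM equals the whole distance from gene start to gene end, introns included, within 1.0%, and in 0.7% it equals the summed exons. Counts were therefore divided by the exon length of each gene's coding transcripts and scaled to the same total in each library, called exonic TPM here. Tubb3 spans 10592 bases with 1868 bases of exon, Tubb5 4386 with 2649, and Map2, a lattice protein of dendrites, 267311 with 10180. Map2 stood at 270.6 ± 19.5 exonic TPM (SD, n = 3) in the controls and at 33.43 deposited TPM.

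**Figure D1:**
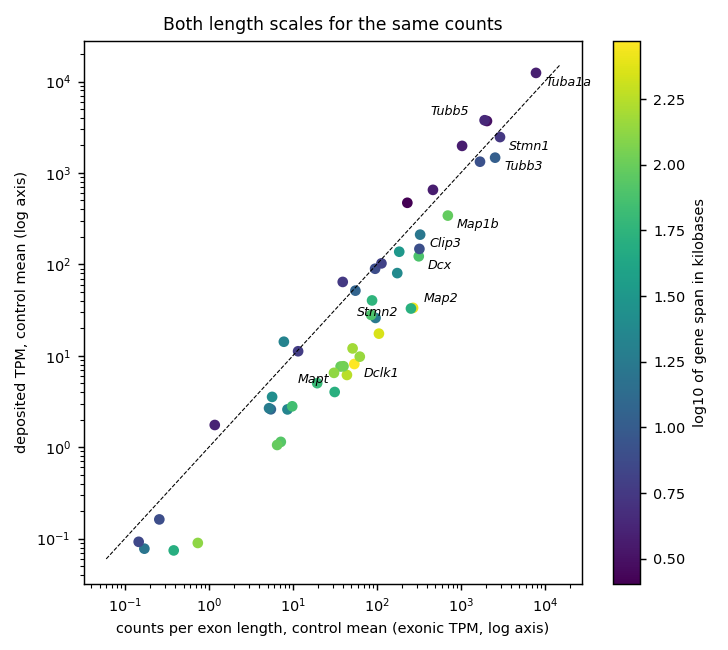
Each point is a gene of the set, at its control mean of 3 libraries, with exonic TPM on the horizontal axis and the deposited TPM on the vertical axis (both log axes, dashed line of equality, colour for the gene's span). Genes with long introns such as Map2 lie far below the line, and compact genes such as Tuba1a and Tubb5 lie above it.

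By exonic TPM the tubulins led the set. Tuba1a, the main alpha-tubulin of newborn neurons, stood at 7877 ± 329.3 exonic TPM in the controls, followed by the stathmin Stmn1 at 2935 ± 73.08, Tubb3 at 2567 ± 106.2, Tuba1b at 2053 ± 77.48, Tubb5 at 1924 ± 24.24, Tuba1c at 1696 ± 22.64 and Tubb2b at 1038 ± 39.5 (SD, n = 3 each). The intervals of 1 SD of Tuba1b and Tubb5 were separate but close. Among the binding proteins the highest after Stmn1 was Map1b, the first structural MAP to appear in growing axons, at 702.2 ± 65.06 exonic TPM. Clip3, Stmn3 and Dcx came next at 328.6 ± 12.26, 322 ± 32.93 and 316.3 ± 22.47, an order that lies within their spread. Alpha- and beta-tubulins together made up between 1.76% and 1.84% of all exonic TPM in the controls and between 1.97% and 2.08% in the Insm1 libraries.

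Between the groups, 4 of the 45 tested genes were called by edgeR (quasi-likelihood fit, Benjamini-Hochberg adjusted p below 0.05), against 3.35% of all tested genes. Tubb3, Tuba1a and Clip3 rose (1.23% of all tested genes rose) and Clip1 fell (2.12% of all fell), while 41 did not pass. The median log2 fold change was 0.064 over the 45 genes and -0.009 over all tested genes, and the median absolute change 0.18 and 0.147. Insm1 libraries lay wholly above the controls in 15 of the 45 genes and wholly below in 6, against 10.4% and 11.8% of all tested genes, 22.2% in either direction. At an unadjusted p below 0.05 there were 20 of the 45 genes, and 2339 of all 13560 tested genes. DESeq2 called 9 of the set higher and 3 lower, where it called 7.6% of all genes, 3.18% higher and 4.42% lower. Its additional calls were Tuba1c, Tuba4a, Tubb2b, Tubb5, Stmn1 and Mapre3 upward and Mapt and Stmn2 downward.

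**Figure D2:**
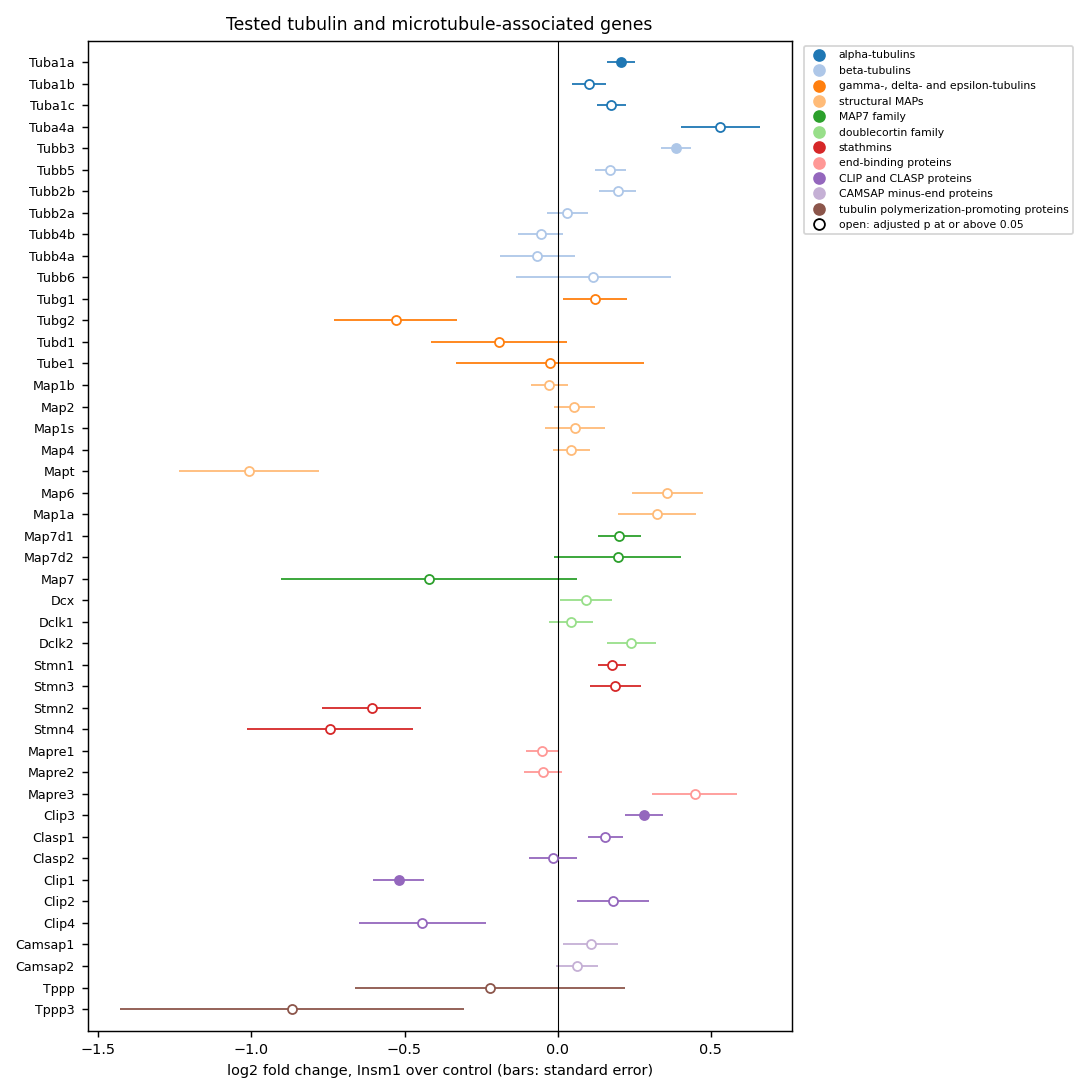
Log2 fold change of Insm1 over control (horizontal axis) with its standard error for the 45 tested genes, coloured by family, with filled points for genes past an adjusted p of 0.05. The 4 filled points are Tuba1a, Tubb3, Clip3 and Clip1, and the lowest well-counted gene is Mapt at -1.01, an open point.

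Among the alpha-tubulins 1 of 4 tested genes rose, none fell and 3 did not pass. All 4 log2 fold changes were positive, against 48.1% over all tested genes. Tuba1c shares 75-base runs with both Tuba1a and Tuba1b, so the signs of these genes may not be separate observations. Tuba1a (ENSMUSG00000072235, chromosome 15, 98949837 to 98953703, minus strand, GRCm38) was at 5378, 4996 and 5132 CPM in controls 1, 2 and 3 and at 5738, 5989 and 6164 CPM in Insm1 libraries 1, 2 and 3. Every Insm1 library lay above every control. The rise was 1.15-fold, or 0.21 ± 0.05 (SE) in log2, at an adjusted p of 0.0393. Leaving out Insm1 library 1 kept the call at 0.0435, and each other omission ended it: adjusted p was 0.0548 when control 1 was omitted, 0.0861 for control 2, 0.181 for control 3, 0.109 for Insm1 library 2 and 0.15 for Insm1 library 3. The log2 fold change then ran from 0.18 to 0.25.

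Tuba1b and Tuba1c are alpha-tubulins that most dividing cells use. Tuba1b was at 1298, 1373 and 1238 CPM in the controls and 1436, 1336 and 1426 CPM with Insm1 (log2 fold change 0.10, adjusted p = 0.402), with overlap of the groups. Tuba1c was between 1185 and 1244 CPM in the controls and between 1349 and 1418 CPM with Insm1, without overlap (0.18, adjusted p = 0.0853). Tuba4a was at 40.44, 44.33 and 37.27 CPM in the controls and 53.17, 70.53 and 52.78 CPM with Insm1, also without overlap. In log2 the difference was 0.53 ± 0.13 (SE) at an adjusted p of 0.0555, which became 0.0426 when control 2 was omitted. Any other single omission gave an adjusted p between 0.0657 and 0.206. Tuba4a passed under 4 of the 9 other settings, among them no filter (0.0364) and a filter of 5 CPM in 3 libraries (0.0336). Stk16, with which Tuba4a shares exon sequence, was between 54.54 and 58.05 CPM in the controls and between 56.85 and 60.28 CPM with Insm1. Tuba8, Tuba3a and Tuba3b had at most 9 counts in any library and were not tested.

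Among the beta-tubulins 1 of 7 tested genes rose, none fell and 6 did not pass. Tubb3 (ENSMUSG00000062380, chromosome 8, 123411424 to 123422015, plus strand) was at 1836, 1718 and 1683 CPM in controls 1, 2 and 3 and at 2260, 2265 and 2329 CPM in Insm1 libraries 1, 2 and 3. The libraries of a group lay close together and the groups far apart. Tubb3 rose by 0.39 ± 0.05 (SE) in log2 at an adjusted p of 0.00536. Tubb3 was the gene of the set whose call held without each of the 6 libraries, with adjusted p between 0.00736 and 0.0386, and under all 9 other settings.

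The remaining abundant beta-tubulins moved less. Tubb5, a widely expressed form, was between 1829 and 1900 CPM in the controls and between 1976 and 2154 CPM with Insm1 (log2 fold change 0.17, adjusted p = 0.103). Tubb2b, mutated in human cortical malformations, was at 825.6, 804.5 and 842.4 CPM and then 880.6, 939 and 1013 CPM (0.20, adjusted p = 0.121). Neither gene overlapped between groups and neither passed. Tubb2a (260 to 280.7 CPM and 261.9 to 302 CPM), Tubb4b (130.4 to 140 CPM and 119 to 137.1 CPM) and Tubb4a (64.09 to 84.73 CPM and 69.07 to 83.45 CPM) overlapped, with log2 fold changes of 0.03, -0.06 and -0.07. Tubb6 was at or below 4.06 CPM everywhere (0.12, adjusted p = 0.877), and Tubb1, the beta-tubulin of platelets, had 0 counts in all libraries but control 2 (7 counts) and Insm1 library 1 (1 count) and was not tested.

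**Figure D3:**
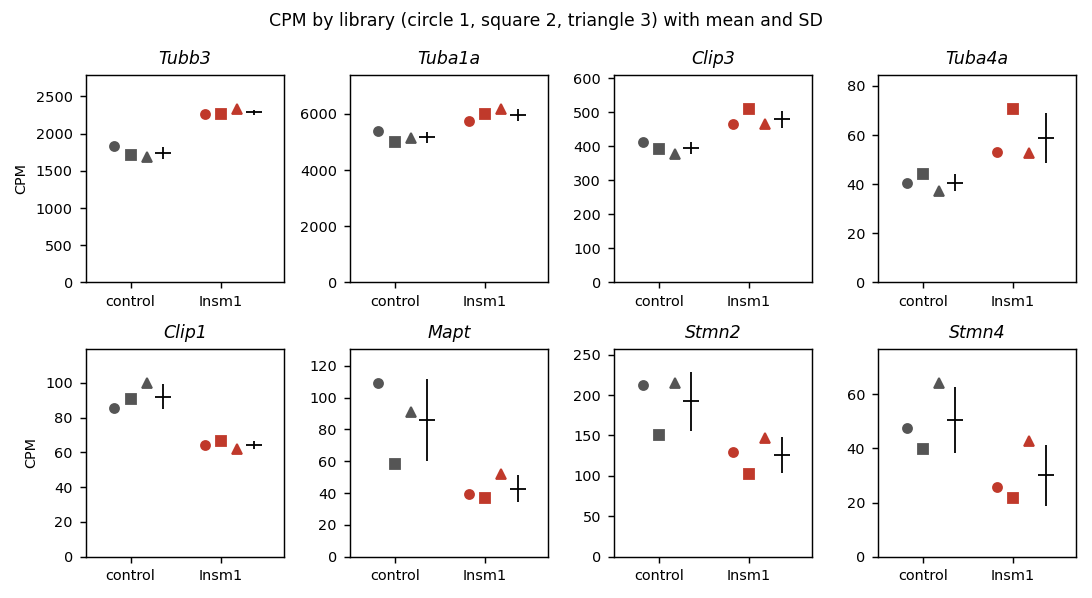
CPM of 8 genes in each library (circle for library 1, square for 2, triangle for 3 of each group; grey control, red Insm1), with the mean and SD of 3 libraries in black and each vertical axis starting at 0. Tubb3, Tuba1a, Clip3, Tuba4a, Clip1, Mapt and Stmn2 separate the groups, and Stmn4 does not. In Mapt and Stmn2 control 2 is the control nearest to the Insm1 libraries.

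Summed over the family, beta-tubulin stood at 6436, 6201 and 6350 exonic TPM in the controls and at 7198, 7075 and 7556 with Insm1, and alpha-tubulin at 11950, 11400 and 11650 and then 12530, 12760 and 13250. Both sums were higher in every Insm1 library than in any control; no test is given, since the sums are over chosen genes. Within the beta-tubulin sum Tubb3 held 41.8%, 40.2% and 39.7% in the controls and 44.8%, 45.5% and 44% with Insm1. The shares of Tubb5 (30.4% ± 0.95 in controls, 28.9% ± 0.98 with Insm1), Tubb2a (7.37% ± 0.29 and 6.34% ± 0.3) and Tubb4b (3.66% ± 0.15 and 2.96% ± 0.19; SD, n = 3 each) were lower with Insm1, and Tubb5 overlapped between groups; as the shares of a sum, they cannot all move one way. Within the alpha-tubulin sum Tuba1a held 67.5% ± 1.4 and 68.5% ± 0.76 and Tuba1b 17.6% ± 0.99 and 16.6% ± 0.8 (SD, n = 3 each), and both overlapped.

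The choice of length set which beta-tubulin led. By exonic TPM Tubb3 led in every library, and by the deposited TPM Tubb5 did, at 44.7% ± 0.99 of the controls' sum against 17.4% ± 0.67 for Tubb3 (SD, n = 3). The share of Tubb3 was higher in each Insm1 library than in each control on both scales, reaching 19.9% ± 0.47 of deposited TPM with Insm1.

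**Figure D4:**
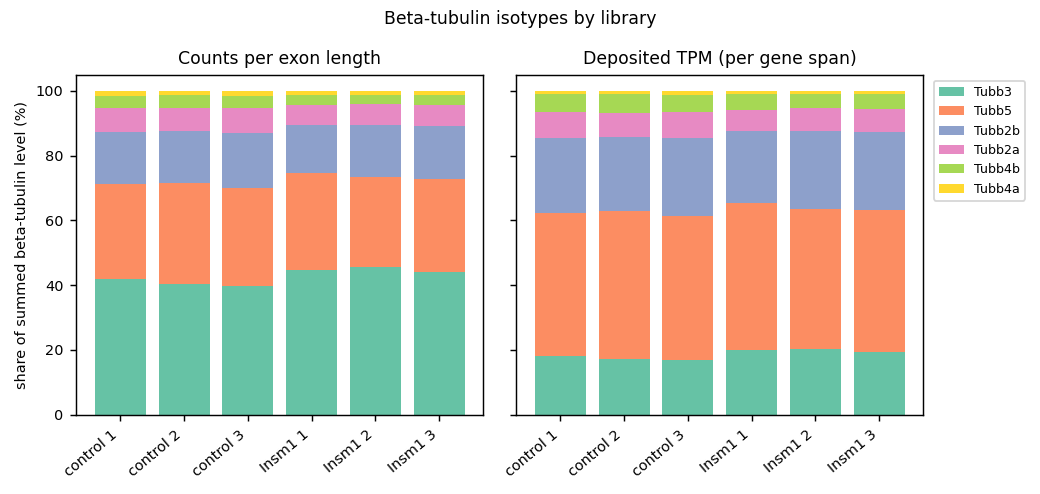
Share of summed beta-tubulin level held by 6 isotypes in each library (vertical axis in percent; Tubb6 and Tubb1 are too low to be drawn), by exonic TPM on the left and by the deposited TPM on the right. Tubb3 is the largest part on the left and Tubb5 on the right, and the part of Tubb3 is larger in the 3 Insm1 libraries on both.

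Levels of marker genes that are no microtubule genes are given beside the tubulins. Over all tested genes 1.23% rose and 2.12% fell. Of 16 fixed markers of projection neurons 3 rose (Neurod6 and Bcl11b among them), none fell and 13 did not pass. When control 2 was omitted 4 rose and 3 fell, in a fit that called 631 of all genes. The 16 genes summed to 4538 to 4720 CPM in the controls and 5201 to 5753 CPM with Insm1, a sum led by Neurod6. Negative log2 fold changes, none of which passed, were those of Syt1 (-1.11), Nefl (-0.76), Sox5 (-0.24), Gap43 (-0.23), Fezf2 (-0.13), Snap25 (-0.10) and Nefm (-0.08). Of 9 markers of apical progenitors 4 fell (Nes, Vim, Fabp7 and Slc1a3) and 5 did not pass, with sums of 3070 to 3566 CPM and 2310 to 2818 CPM. Of 8 interneuron markers none passed, with sums of 111.5 to 124.5 CPM and 68.3 to 93.41 CPM, without overlap. When control 2 was omitted 1 of the 8 fell. Of 8 genes of the response to dissociation Jun fell and 7 did not pass, and their sums of 548.5 to 696.7 CPM and 498.5 to 534.7 CPM did not overlap either. Of 10 cell cycle genes Mcm3 and Mcm5 fell and 8 did not pass, with overlapping sums of 2103 to 2731 CPM and 1797 to 2470 CPM. When control 2 was omitted none of the 10 passed (adjusted p 0.0521 for Mcm3 and 0.0804 for Mcm5). Mcm3 kept its call only without Insm1 library 1 (0.0114), and Mcm5 lost its call whichever library was omitted. None of these markers was at 0 in all libraries. Their part in the tubulin values was not tested, and in sorted bulk cells more neurons and more RNA per neuron cannot be told apart.

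The gamma-, delta- and epsilon-tubulins, which act at centrosomes and basal bodies, had 4 tested genes and no call. Tubg1 was at 69.61, 75.94 and 78.01 CPM in the controls and 92.96, 71.27 and 79.09 CPM with Insm1 (log2 fold change 0.12, adjusted p = 0.636). Its relative Tubg2, more restricted to brain, was at 7.06, 6.52 and 8.55 CPM and then 5.27, 5.09 and 4.98 CPM, without overlap (-0.53, adjusted p = 0.211). Tubd1 and Tube1 were at most 7.36 CPM in any library and overlapped (log2 fold changes -0.19 and -0.03).

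Structural MAPs had 7 tested genes and no call. Map1b, Map2, Map4 and Map1s, which hold lattices together in axons, dendrites and dividing cells, had log2 fold changes between -0.03 and 0.06 with standard errors of at most 0.1. Map1b was at 3771, 3306 and 3844 CPM in the controls and 3633, 3663 and 3421 CPM with Insm1, and Map2 at 1022, 935.9 and 1048 CPM and then 966.6, 1115 and 1041 CPM. Both overlapped between groups. Map6, a protein that protects microtubules from cold, was between 20.2 and 24.06 CPM in the controls and between 26.34 and 29.38 CPM with Insm1 (log2 fold change 0.36, adjusted p = 0.139). Map1a, the adult counterpart of Map1b, was between 29.21 and 38.27 CPM and then between 38.33 and 47.48 CPM (0.33, adjusted p = 0.219). The groups of both stood apart, for Map1a by very little.

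Mapt, which encodes tau, the MAP of axons, went the other way. It was at 108.8, 58.28 and 91.13 CPM in controls 1, 2 and 3 and at 39.14, 36.98 and 52.23 CPM in Insm1 libraries 1, 2 and 3. All Insm1 libraries lay below all controls, but control 2 was closer to Insm1 library 3 than to any control. In log2 the difference was -1.01 ± 0.23 (SE) at an adjusted p of 0.0592. The adjusted p was 0.00333 when control 2 was omitted, between 0.0705 and 0.204 for any other omission, and 1.1e-05 in DESeq2. Mapt (ENSMUSG00000018411) lies on chromosome 11, 104231390 to 104332090, plus strand.

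Stathmins split in sign, with 4 tested genes and no call. Stmn1, the form of progenitors and young neurons, was at 1491, 1567 and 1527 CPM in the controls and 1717, 1703 and 1771 CPM with Insm1 (0.18 ± 0.05 (SE) in log2, adjusted p = 0.0711). Stmn3 was between 119.7 and 145.4 CPM and then between 146.1 and 162.2 CPM (0.19, adjusted p = 0.284). Stmn2, which supports axon growth and upkeep, was at 212.7, 150.2 and 214.3 CPM in the controls and 129.6, 102.7 and 146.4 CPM with Insm1, a difference of -0.61 ± 0.16 (SE) in log2, without overlap. Its adjusted p was 0.0908, and 0.0113 without control 2. Stmn4, a neuronal form, was at 47.43, 39.88 and 63.94 CPM and then 25.73, 21.72 and 42.89 CPM (-0.74, adjusted p = 0.21), where Insm1 library 3 lay above control 2. Without Insm1 library 3 the adjusted p of Stmn4 was 0.0413.

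Markers of other neurons are given beside Mapt, Stmn2 and Stmn4, where 1.23% of all tested genes rose and 2.12% fell. Of 12 fixed channel and receptor genes of more mature neurons 2 fell (Grin2b and Grik3), none rose and 10 did not pass, with sums of 279.4 to 327.1 CPM in the controls and 268.3 to 299.2 CPM with Insm1. Control 2 held the lowest control level of Mapt, Stmn2 and Stmn4, of the channel sum and of the Cajal-Retzius sum (32.03 CPM). Of the Cajal-Retzius genes 5 were tested and none passed (median log2 fold change -1.98), and none was at 0 in all libraries. When control 2 was omitted, all 5 tested Cajal-Retzius genes and 4 of the 12 channel and receptor genes fell, where 631 of all genes were called. The part of these cells in the Mapt and stathmin values was not tested.

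Doublecortin and its relatives, which stabilise the lattice in migrating neurons, had 3 tested genes and no call. Dcx was at 1142, 999.3 and 1051 CPM in the controls and 988.2, 1251 and 1165 CPM with Insm1 (0.09 ± 0.09 (SE) in log2, adjusted p = 0.67). Dcx thus overlapped where Tubb3, the other common marker of newborn neurons, did not. Dclk1 was between 249.3 and 296.6 CPM and between 267.2 and 289.2 CPM (0.04), and Dclk2 between 92.72 and 106.4 CPM and between 108.5 and 122.6 CPM (0.24, adjusted p = 0.147). Dclk3 had 12, 26 and 1 counts in the controls and 1, 0 and 4 with Insm1 and was not tested.

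Of the MAP7 family, which recruits kinesin-1 to microtubules, 3 genes were tested and none passed. Map7d1 was at 210, 237.6 and 206 CPM in the controls and 241.3, 251.4 and 259.3 CPM with Insm1 (log2 fold change 0.20, adjusted p = 0.162), without overlap. Map7d2 was at most 14.3 CPM and Map7 at most 1.72 CPM in any library, and both overlapped (log2 fold changes 0.20 and -0.42).

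CLIP proteins held both directions. Clip3, a CLIP-170 relative of the trans-Golgi network that is abundant in brain, was at 413.4, 391.8 and 379 CPM in the controls and at 465.5, 509.7 and 465.5 CPM with Insm1. The groups did not overlap, and the rise was 0.28 ± 0.06 (SE) in log2 at an adjusted p of 0.037. Omitting any 1 of the 6 libraries ended that call: adjusted p was 0.0557, 0.0576 and 0.159 for controls 1, 2 and 3 and 0.0559, 0.122 and 0.087 for Insm1 libraries 1, 2 and 3. Clip3 (ENSMUSG00000013921) lies on chromosome 7, 30291728 to 30308367, plus strand.

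Clip1, which encodes CLIP-170 itself, the founding plus-end tracking protein, was at 85.44, 90.9 and 99.62 CPM in the controls and at 64.19, 66.54 and 61.83 CPM with Insm1. Every Insm1 library lay well below every control. The fall was 1.43-fold, or -0.52 ± 0.08 (SE) in log2, at an adjusted p of 0.0111. Omitting control 3 (0.0587) or Insm1 library 3 (0.0505) ended the call, and the log2 fold change stayed between -0.56 and -0.45. Clip1 (ENSMUSG00000049550) lies on chromosome 5, 123577795 to 123684618, minus strand. Clip2 was between 33.13 and 40.02 CPM in the controls and between 36.94 and 44.77 CPM with Insm1 (0.18, adjusted p = 0.504), and Clip4 between 8.11 and 10.68 CPM and between 5.69 and 7.91 CPM (-0.44, adjusted p = 0.317).

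CLASPs, which rescue shrinking plus ends, did not pass: Clasp1 was between 433.3 and 441.9 CPM and between 464.4 and 515.7 CPM (log2 fold change 0.16, adjusted p = 0.19), and Clasp2 overlapped (-0.02). Of the end-binding proteins, which recruit the other plus-end factors, Mapre1 was at 495.3, 502.1 and 486.2 CPM in the controls and 460.7, 486.7 and 485.9 CPM with Insm1 (-0.05, adjusted p = 0.723), and Mapre2 was between 151.2 and 163.3 CPM and between 148.7 and 151.1 CPM (-0.05). Mapre3, the form enriched in neurons, was at 27.07, 20.87 and 21.67 CPM and then 29.48, 36.04 and 29.44 CPM, a difference of 0.45 ± 0.14 (SE) in log2 at an adjusted p of 0.123. The groups of Mapre3 did not overlap, and the gene did not pass.

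At minus ends, Camsap1 (245.6 to 269.3 CPM and 243.1 to 313.6 CPM) and Camsap2 (237.4 to 256 CPM and 238.2 to 275.9 CPM) had log2 fold changes of 0.11 and 0.06 and overlapped. Tppp, which bundles microtubules in glia, was at 7.41, 14.86 and 9.3 CPM in the controls and 3.59, 13.13 and 10.38 CPM with Insm1 (-0.22, adjusted p = 0.869). Tppp3 was at most 0.881 CPM in any library (-0.87, adjusted p = 0.501).

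Related genes of a family thus took different values, which the ratios within each library show. The ratios were chosen after the values were seen, so no test is given. Clip3 over Clip1 was 2.27, 2.11 and 1.93 on the log2 scale of CPM in controls 1, 2 and 3 and 2.86, 2.94 and 2.91 with Insm1. Stmn1 over Stmn2 was 2.81, 3.38 and 2.83 and then 3.73, 4.05 and 3.6, and Map2 over Mapt 3.23, 4.01 and 3.52 and then 4.63, 4.91 and 4.32. In all 3 ratios every Insm1 library lay above every control, and in those with Stmn2 and Mapt control 2 was the highest control. The ratio of Tubb3 to Tubb5 went from a mean of -0.09 to 0.13, that of Mapre3 to Mapre1 from -4.42 to -3.92 and that of Tubg1 to Tubg2 from 3.34 to 3.98, again without overlap. Tuba4a over Tuba1a overlapped, with control 2 at -6.82 and Insm1 library 3 at -6.87.

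**Figure D5:**
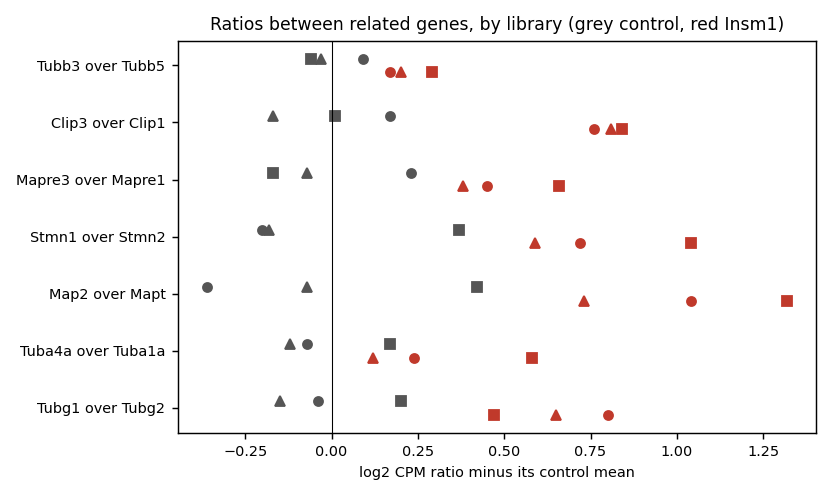
Log2 CPM ratio of 7 pairs of related genes in each library, less the mean of the 3 controls (horizontal axis; grey control and red Insm1; circle, square and triangle for libraries 1, 2 and 3). Clip3 over Clip1 is 0.8 higher with Insm1 on average, and the square of control 2 lies toward the Insm1 libraries for Stmn1 over Stmn2 and Map2 over Mapt.

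Other genes of the microtubule system were taken from fixed lists. None of 17 genes of the gamma-tubulin ring and augmin complexes, which nucleate filaments, passed (median log2 fold change -0.05), none of 21 tubulin folding factors and chaperonin subunits (0.01), none of 18 tested tubulin-modifying enzymes (0.15), none of 8 severing enzymes (-0.01) and none of 16 kinases and regulatory subunits that act on MAPs (0.07). Over all tested genes the median was -0.009. The most abundant of each list were Mzt1 (log2 fold change 0.03), Cct5 (-0.07), the alpha-tubulin acetylase Atat1 (0.13), the severing enzyme Spast (0.05) and the kinase Gsk3b (0.11).

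Of 38 other lattice and plus-end proteins 3 rose, 1 fell and 34 did not pass, where 1.23% of all tested genes rose and 2.12% fell. Tacc1, a centrosome-associated coiled-coil protein, was at 136.6, 152.9 and 133.5 CPM in the controls and 81.55, 98.14 and 76.96 CPM with Insm1. It fell, by a log2 fold change of -0.72 ± 0.1 (SE), at an adjusted p of 0.00654, with a call whichever library was omitted (adjusted p at most 0.0325). Apc2, a neuronal relative of the tumour suppressor Apc, was at 371.6, 405.2 and 371.7 CPM and then 460, 531.2 and 535.7 CPM (log2 fold change 0.41, adjusted p = 0.0149). Nav1, a neuronal plus-end protein, was between 320 and 345.3 CPM and then between 401.2 and 441.2 CPM (0.36, adjusted p = 0.0124), and Mtus1 between 65.25 and 71.06 CPM and then between 81.74 and 96.22 CPM (0.39, adjusted p = 0.0384). The groups of these 4 genes did not overlap. Omitting control 3 or Insm1 library 2 or 3 ended the calls of Apc2 (0.0769, 0.0636 and 0.0677), Nav1 (0.0671, 0.0546 and 0.0558) and Mtus1 (0.166, 0.102 and 0.143). Omitting control 1 also ended those of Apc2 (0.0548) and Mtus1 (0.0759), and omitting control 2 that of Mtus1 (0.0649).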

How the data were processed

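RNA was measured in 6 libraries, 3 per group. Per the labels' protocols, cDNA was primed with poly-dT, amplified by 12 cycles, sheared, amplified by 15 more and read as single 75-base reads, without strand or molecular identifiers, so opposite-strand partners are not separable. The tools and build were bcl2fastq, Bowtie, TopHat2 2.0.13 and GRCm38, per the submitters' processing notes. The sources used here name no counting program, strand setting or annotation. The authors deposited counts per Ensembl gene and TPM, whose implied lengths are whole gene spans; 333 genes have no TPM. The planned TPM shares were therefore replaced by exonic TPM from the counts (GENCODE M21, exon union of coding transcripts).

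Genes were kept by filterByExpr, scaled by TMM (factors 0.9753 to 1.021) and compared by edgeR 4.0.16 (R 4.3.3), robust quasi-likelihood, group alone, two-sided, with Benjamini-Hochberg adjustment over 13560 genes and a threshold of 0.05. In simulated data over genes of all levels the fit recovered 49.3% of 1.5-fold, 65.7% of 2-fold and 86.4% of 4-fold changes. A gene that did not pass may therefore still have changed. Libraries of a group differed beyond counting error (chi-square per degree of freedom 12.43 to 31.05). Alternatives were DESeq2 1.42.0, scaling by RLE or the upper quartile, limma 3.58.1 on log2(TPM + 1) and log2(TPM + 0.1) of the deposited TPM, no filter, 5 CPM in 3 libraries, a replicate block, a non-robust fit and each library left out. Named genes are the called ones, those of at least 100 deposited TPM and the most abundant of each family, with all others summarised or given as values; of each other list up to 4 called genes or the most abundant. Members and lists were chosen with earlier results of these data known.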

Additional observations from a re-analysis of the deposited data

How the results depend on the processing

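Over all genes 454 were called, 1022 by DESeq2, 100 and 96 by limma on log2(TPM + 1) and log2(TPM + 0.1), and 101 (without control 3) to 631 (without control 2) with single libraries left out. The 3 tubulin and microtubule genes called higher became 9 by DESeq2, 1 by limma on either TPM scale and 1 to 2 with single libraries left out. With no filter, and with the filter of 5 CPM in 3 libraries, they became 4, with Tuba4a added. The 1 called lower became 3 by DESeq2, 0 by limma on either scale, 2 without the robust fit and 0 to 3 with single libraries left out. RLE and upper-quartile scaling called the same 4 genes. The replicate number as a block gave 331 genes, 2 of the set higher (Tubb3 and Tuba4a) and 4 lower (Clip1, Mapt, Stmn2 and Stmn4). Same-numbered libraries correlated in their deviations at 0.0744, 0.0349 and -0.055, and the other pairs at -0.0969 to 0.0647. The labels do not say whether same-numbered libraries were prepared together, and with 3 libraries a group these correlations cannot decide it. Log2 fold changes near 0 changed sign with single libraries left out: Map1b ran from -0.089 to 0.018, Tppp from -0.591 to 0.16, Tubb2a from -0.027 to 0.077 and Tubb4b from -0.098 to 0.003. Tubb2a was -0.035 by limma on either TPM scale. The share of Tuba1a was 70.9% and 72% (control and Insm1) by deposited TPM, 69.8% and 70.8% by the exons of all transcripts and, with Insm1, 67.7% by CPM. The share of Tubb3 was 17.4% and 19.9%, 44% and 48.3%, and 35.5% and 39.4% on these scales. Both length alternatives were chosen after seeing the data. Except for the lengths, the cause was not tested. Reads without molecular identifiers are not independent molecules, and 3 libraries a group limit the precision.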
